A study of Mus musculus with 6 samples.

Results

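The DNA methylation of the genes that encode the methylation machinery itself was read in E14 mouse embryonic stem cells. Dnmt1, Dnmt3a, Dnmt3b, Dnmt3l, Tet1, Tet2 and Tet3 were each covered by 1 window of the mm9 genome, and every cytosine listed in a window was a member whatever its level. The windows were chr9:20706000-20762000 (Dnmt1), chr12:3800000-3920000 (Dnmt3a), chr2:153470000-153518000 (Dnmt3b), chr10:77500000-77533000 (Dnmt3l), chr10:62262000-62348000 (Tet1), chr3:133121000-133213000 (Tet2) and chr6:83307000-83412000 (Tet3). They held 540 of the 750119 cytosines that had a level in at least 1 library, with 65 in the Dnmt1 window, 152 in Dnmt3a, 45 in Dnmt3b, 47 in Dnmt3l, 25 in Tet1, 46 in Tet2 and 160 in Tet3. Of these 540, 272 were listed in all 6 libraries, and comparisons of levels use those unless another set is named.

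The cells carried short hairpin RNAs (shRNA). In 1 knockdown these were directed at the pair Tet1 and Tet2, in another at the pair Dnmt3a and Dnmt3b, and in 3 more at Dnmt1, Dnmt3a or Dnmt3b alone; the control cells carried a control shRNA. Each of these 6 groups was 1 library, so there are no replicates, no p-value is given, and an SD is over cytosines and not over cultures. E14 is an established embryonic stem cell line, and all groups went through the same assay, reduced representation bisulfite sequencing. In that assay the enzyme MspI cuts at CCGG, so that only cytosines near such sites are read. Expression was not measured in these libraries, so the extent of each knockdown is not known from them. Each level is the share of reads at a cytosine that stayed unconverted, given here in percent, and its read depth is unknown because no counts come with it. The windows had 394 listed cytosines in the Tet1 and Tet2 knockdown, 350 in the Dnmt1 knockdown, 409 in the Dnmt3a knockdown, 400 in the Dnmt3b knockdown, 380 in the Dnmt3a and Dnmt3b knockdown and 396 in the control. The Dnmt1 library was also the shortest over the whole series, with 444949 cytosines against 554359 to 604092 in the other libraries, and its smaller size was not tested as a part of any result.

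DNMT1 copies CpG methylation onto the new strand after replication. DNMT3A and DNMT3B place methylation on unmethylated DNA, and DNMT3L, which has no catalytic activity of its own, helps them. TET1, TET2 and TET3 oxidise methylcytosine to hydroxymethylcytosine and further products, and bisulfite sequencing reads hydroxymethylcytosine as methylated.

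To find the gene starts on mm9, promoter sequences from RefSeq (GRCm38.p6 table, 250 bases before to 50 bases after each start) were placed by the spacing and 5-base context of the listed cytosines. The starts of Dnmt1, Tet2, Tet3 and Dnmt3a fell inside their windows. The Tet1 start fell outside, 2.07 kb past the end of its window, so the Tet1 window holds sequence downstream of the start only. No promoter could be placed for Dnmt3b or for any of the 3 Dnmt3l sequences in the table, each of which has 0 CCGG sites. The following promoters are shown because the low stretches of the windows turn on them. They are written 5′ to 3′ on the gene's strand, in lower case, with capitals at the cytosines the files list: C where the cytosine is on the gene's strand, and G where it is the partner on the other strand.
Dnmt1, chr9:20757018-20757317, minus strand: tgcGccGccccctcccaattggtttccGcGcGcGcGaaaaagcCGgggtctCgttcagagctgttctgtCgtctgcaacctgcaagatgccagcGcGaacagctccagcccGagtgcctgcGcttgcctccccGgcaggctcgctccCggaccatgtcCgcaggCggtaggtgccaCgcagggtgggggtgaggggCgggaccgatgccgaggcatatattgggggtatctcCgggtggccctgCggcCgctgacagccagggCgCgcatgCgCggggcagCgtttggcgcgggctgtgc
Dnmt3a, chr12:3806730-3807029, plus strand: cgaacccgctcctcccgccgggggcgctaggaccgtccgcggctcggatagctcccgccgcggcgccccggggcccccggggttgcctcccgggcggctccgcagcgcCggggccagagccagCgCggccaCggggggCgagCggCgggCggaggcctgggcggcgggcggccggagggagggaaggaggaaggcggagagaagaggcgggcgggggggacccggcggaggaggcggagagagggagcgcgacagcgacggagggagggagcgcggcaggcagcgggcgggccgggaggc
Tet1, chr10:62350023-62350322, minus strand: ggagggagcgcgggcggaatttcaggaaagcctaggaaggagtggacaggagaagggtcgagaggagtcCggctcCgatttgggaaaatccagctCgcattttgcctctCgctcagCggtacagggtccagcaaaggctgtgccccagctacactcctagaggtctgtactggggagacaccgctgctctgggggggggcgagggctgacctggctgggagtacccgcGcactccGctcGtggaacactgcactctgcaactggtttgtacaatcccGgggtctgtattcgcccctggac
Tet2, chr3:133207305-133207604, minus strand: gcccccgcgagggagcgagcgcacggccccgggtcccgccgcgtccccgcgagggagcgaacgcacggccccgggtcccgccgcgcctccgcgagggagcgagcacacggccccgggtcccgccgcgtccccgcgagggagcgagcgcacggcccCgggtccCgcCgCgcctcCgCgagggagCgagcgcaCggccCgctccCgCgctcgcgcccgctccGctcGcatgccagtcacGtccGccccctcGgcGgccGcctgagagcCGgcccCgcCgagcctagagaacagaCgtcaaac
Tet3, chr6:83391623-83391922, minus strand: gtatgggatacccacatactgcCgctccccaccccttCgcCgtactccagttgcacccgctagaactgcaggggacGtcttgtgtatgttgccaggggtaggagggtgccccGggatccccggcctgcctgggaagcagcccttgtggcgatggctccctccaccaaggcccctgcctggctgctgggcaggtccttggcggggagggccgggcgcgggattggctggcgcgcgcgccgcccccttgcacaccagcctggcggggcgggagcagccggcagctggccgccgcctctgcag
Aire, the neighbour in the Dnmt3l window, chr10:77506306-77506605, minus strand: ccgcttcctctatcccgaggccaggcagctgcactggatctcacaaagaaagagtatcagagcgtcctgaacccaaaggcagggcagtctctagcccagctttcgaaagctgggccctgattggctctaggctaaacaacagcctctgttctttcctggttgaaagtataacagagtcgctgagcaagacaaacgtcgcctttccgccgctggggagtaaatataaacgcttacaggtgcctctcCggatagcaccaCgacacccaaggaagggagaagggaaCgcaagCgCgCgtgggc
The Tet2 promoter is the densest of the member promoters in CpG, with 57 in 300 bases, and 99.8% of the promoters in the table have fewer. The Dnmt3a promoter shown has 46, the Dnmt1 promoter 33, the Tet3 promoter 22 and the Tet1 promoter 17, while the Dnmt3l sequences have 3, 4 and 6 and the median of the table is 7.

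Every placed member promoter was unmethylated or nearly so in each library that listed it. All 23 listed cytosines of the Tet2 promoter were at 0% in the Tet1 and Tet2, Dnmt1 and Dnmt3a knockdowns and in the control, and the highest level in the other libraries was 0.7%. The 9 listed cytosines of the Tet1 promoter were at 0% in the Tet1 and Tet2, Dnmt3a, Dnmt3b, and Dnmt3a and Dnmt3b knockdowns and in the control, and the Dnmt1 library listed none of them. Both genes that this shRNA pair was directed at thus had unmethylated cytosines at their starts with and without the knockdown.

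The Dnmt1 promoter averaged 0% in the Tet1 and Tet2 knockdown, 0.0138% in the Dnmt1 knockdown, 0.319% in the Dnmt3b knockdown and 0% in the control. Its single highest value was 5.9%, in the Dnmt3b knockdown. The Dnmt3a promoter shown had 8 cytosines in each library, which averaged 0% in every knockdown but the Dnmt1 knockdown, where the mean was 0.0625%, as it was in the control. Another placed Dnmt3a promoter, chr12:3806910-3807209, had 2 to 7 listed cytosines and a further one, chr12:3891494-3891793, had 5, all at 0% wherever they were listed. The last was listed in the Tet1 and Tet2, Dnmt3a and Dnmt3b knockdowns and not in the control, so it was not compared.

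The Tet3 promoter was the member promoter with the most methylation, and its level was still low. It averaged 3.6% in the Tet1 and Tet2 knockdown, 0% in the Dnmt1 knockdown (3 cytosines listed), 0.8% in the Dnmt3a knockdown, 0.72% in the Dnmt3b knockdown, 0% in the Dnmt3a and Dnmt3b knockdown and 3.14% in the control (5 cytosines listed in each of the other 5). The highest single value was 11.8%, in the control. Over all genes, 146 of 6093 placed promoters with at least 5 listed control cytosines (2.4%) averaged 20% or more in the control, and their median was 0.016%. Low methylation at a start was thus the common state among placed promoters and not particular to the Dnmt and Tet genes.

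Other genes of the pathway gave the same picture from a list of 37 that covers cofactors, demethylation and base excision repair. Promoters were placed for 20 of these genes, 23 promoters in all. Of the 21 with at least 5 listed control cytosines, 0 averaged 20% or more. The highest mean in any library was 1.85%, for the repair glycosylase gene Neil1 in the Dnmt3a knockdown, against 0% in the control. The highest in the control was 0.383%, for the tRNA methyltransferase gene Trdmt1. Uhrf1, whose product brings DNMT1 to hemimethylated DNA, had 13 listed cytosines with a mean of 0.0385% in the Dnmt3a and Dnmt3b knockdown and 0% in the other knockdowns and the control.

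Low runs extended this picture beyond the exact starts. A low run is a stretch of at least 5 consecutive listed cytosines of 1 library, each below 20% and at most 300 bp from the next. The windows held 13 low runs in the Tet1 and Tet2 knockdown, 13 in the Dnmt1 knockdown, 11 in the Dnmt3a knockdown, 11 in the Dnmt3b knockdown, 11 in the Dnmt3a and Dnmt3b knockdown and 10 in the control. The 10 control runs were overlapped by a run in 9 cases in the Dnmt1 knockdown and in 10 of 10 in each other knockdown. The Tet1 and Tet2 knockdown had 2 runs with no control run, of 5 and 8 cytosines, of which the control listed 3 and 1. The control run at chr6:83406386-83407046 was met by 2 runs of that knockdown, which did not list the cytosines between them. Run counts thus also depend on which cytosines a library lists. No library had a low run in the Tet1 window.

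The same rule on the median of the 6 libraries gave 9 low runs with cytosines listed in all of them. Each of these averaged 3.2% or less in every library. The highest mean, 3.2%, was in the Dnmt3b knockdown at the run over the Aire promoter. The Dnmt1 run, chr9:20756825-20757223, held 20 cytosines over the Dnmt1 start and averaged 0% in the Tet1 and Tet2 knockdown, 0.02% in the Dnmt1 knockdown, 0% in the Dnmt3a knockdown, 0.335% in the Dnmt3b knockdown, 0.07% in the Dnmt3a and Dnmt3b knockdown and 0% in the control. The Tet2 run, chr3:133207312-133207449, held 23 cytosines over the Tet2 start, and 136 of its 138 values were exactly 0%. The Dnmt3b run, chr2:153475422-153475815, held 25 cytosines and 143 of its 150 values were 0%, with a maximum of 2.3%. It lies near the low-coordinate end of the Dnmt3b window, and whether it is the Dnmt3b promoter could not be shown because that promoter was not placed.

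Dnmt3a had 3 such runs. The first, chr12:3806533-3806879, had 11 cytosines and the second, chr12:3807197-3807246, had 11, and both overlapped a Dnmt3a promoter. The last, chr12:3807769-3808236, had 18 cytosines centred 1.02 kb downstream of the first start. Its mean was 0.472% in the Tet1 and Tet2 knockdown, 0.111% in the Dnmt1 knockdown, 0.0833% in the Dnmt3a knockdown, 0.583% in the Dnmt3b knockdown, 0.189% in the Dnmt3a and Dnmt3b knockdown and 0.228% in the control. All of these lie within 1 percentage point of each other.

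In the Tet3 window the low run of the median lay 15.3 kb upstream of the placed start, at chr6:83406800-83407046, with 21 cytosines, a maximum of 5% and no placed promoter over it. It averaged 0.448% in the Tet1 and Tet2 knockdown, 0.224% in the Dnmt1 knockdown, 0.133% in the Dnmt3a knockdown, 0.419% in the Dnmt3b knockdown, 0.0429% in the Dnmt3a and Dnmt3b knockdown and 0.267% in the control. The Tet3 start had a low run as well, chr6:83391810-83391924 with 6 cytosines, in every library but the Dnmt1 knockdown, which listed 4 of the 6. That run averaged 3% in the Tet1 and Tet2 knockdown, 0.667% in the Dnmt3a knockdown, 0.6% in the Dnmt3b knockdown, 0% in the Dnmt3a and Dnmt3b knockdown and 2.95% in the control.

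The low runs of the Dnmt3l window belonged to other genes. The run at chr10:77506312-77506360, with 6 cytosines, overlapped the promoter of Aire, which encodes the autoimmune regulator. The run at chr10:77531996-77532326, with 23 cytosines, overlapped the promoter of Icosl, which encodes the ligand of the T cell receptor ICOS. The Aire run averaged 2.38% in the Tet1 and Tet2 knockdown, 0% in the Dnmt1 knockdown, 0.75% in the Dnmt3a knockdown, 3.2% in the Dnmt3b knockdown, 0% in the Dnmt3a and Dnmt3b knockdown and 1.18% in the control. Its 7.1% in 1 control cytosine was the highest value in any of the 9 runs. No low run at a Dnmt3l start was found, and with no CCGG in the Dnmt3l promoter sequences of the table the assay has no cutting site within them.

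**Figure D1:**
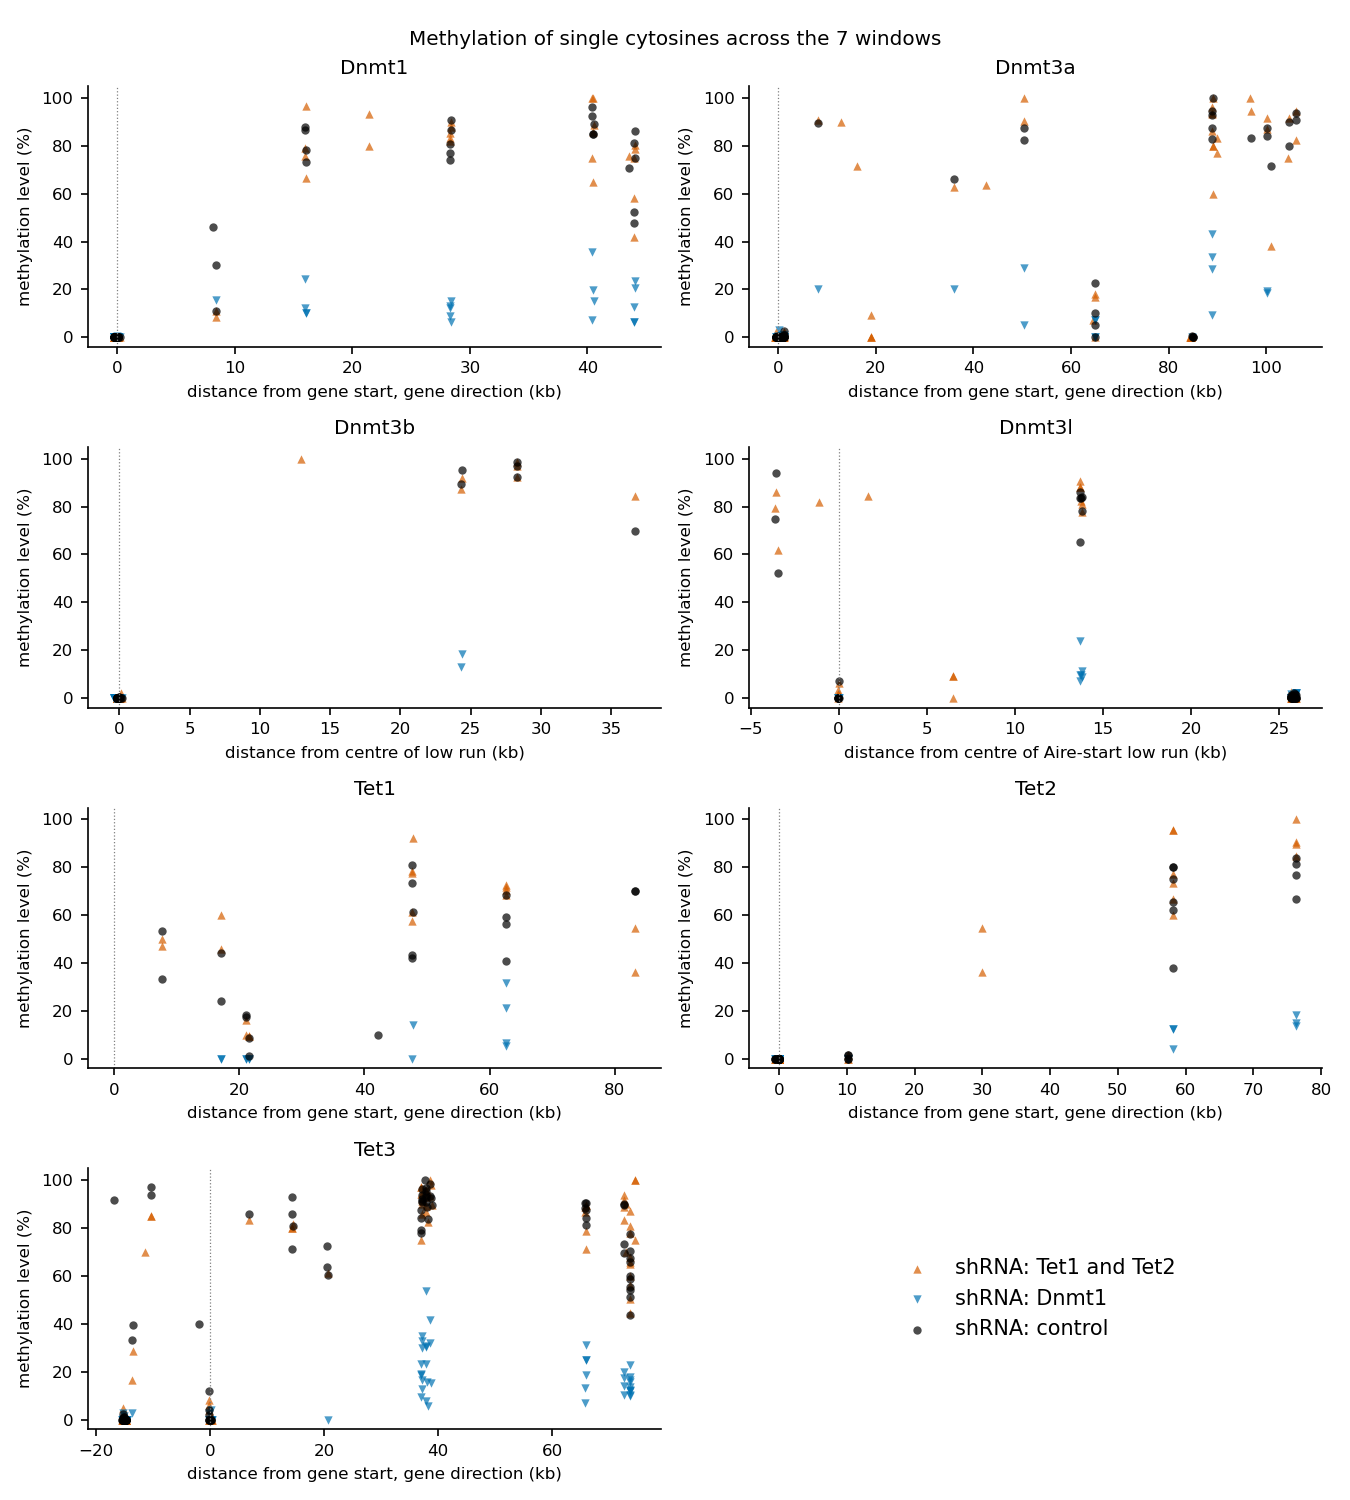
Each panel plots the methylation level in percent (y axis) of every listed cytosine of 1 window against its distance in kb (x axis) from the placed gene start, in the gene's direction, or from the centre of a low run for Dnmt3b and Dnmt3l, where no start was placed. Points are single cytosines of the Tet1 and Tet2 knockdown (orange, upward triangles), the Dnmt1 knockdown (blue, downward triangles) and the control (black circles): near 0 kb all 3 libraries lie near 0% in every panel but Tet1, which has no point there, and at the clusters of methylated cytosines away from it the Dnmt1 knockdown lies below the control.

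The windows held low and methylated cytosines in unequal numbers. Of the 272 cytosines listed in all libraries, 182 (66.9%) had a median below 20% and are called low, 81 (29.8%) had a median of at least 50% and are called methylated, and 9 fell between. The methylated ones were spread unevenly, with 17 in the Dnmt1 window, 10 in Dnmt3a, 2 in Dnmt3b, 6 in Dnmt3l, 3 in Tet1, 5 in Tet2 and 38 in Tet3. Over all autosomes, 68.4% of 369208 cytosines listed in all libraries were low and 26.5% were methylated, so the windows were close to the autosomes in this respect. The 9 low runs held 158 of the 182 low cytosines, and the other 24 were in the Tet2 window (8), the Tet3 window (8), the Tet1 window (4) and the Dnmt3a window (4).

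Methylation of the 7 loci fell in the Dnmt1 knockdown and differed from the control far less in the other libraries. The 81 methylated cytosines averaged 84.5% in the Tet1 and Tet2 knockdown, 17.9% in the Dnmt1 knockdown, 73.4% in the Dnmt3a knockdown, 81.9% in the Dnmt3b knockdown, 77.3% in the Dnmt3a and Dnmt3b knockdown and 81.1% in the control. The differences from the control, with their SD over the 81 cytosines, were 3.46 ± 9.03 percentage points for Tet1 and Tet2, -63.1 ± 11.8 for Dnmt1, -7.71 ± 9.22 for Dnmt3a, 0.779 ± 6.19 for Dnmt3b and -3.75 ± 8.25 for Dnmt3a and Dnmt3b. Over all methylated autosomal cytosines the same differences were 2.23, -66.2, -9.02, 0.511 and -5.96 points, in the same order of knockdowns. The Dnmt1 difference alone was larger than its spread over cytosines, and all the differences share the 1 control library.

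The count of cytosines that were lower told the same order. All 81 lay below the control in the Dnmt1 knockdown. In the Dnmt3a knockdown 66 lay below and 14 above, and in the Dnmt3a and Dnmt3b knockdown 59 lay below and 21 above. The Dnmt3b knockdown was near an even split, with 35 below and 44 above, and the Tet1 and Tet2 knockdown had 31 below and 50 above. Of 97694 methylated autosomal cytosines, 97348 lay below and 67 above in the Dnmt1 knockdown, and 83059 and 13753 in the Dnmt3a knockdown. The autosomal counts were 75810 and 20878 for Dnmt3a and Dnmt3b, 45177 and 51129 for Dnmt3b, and 35794 and 60474 for Tet1 and Tet2.

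A threshold of 20 points was then applied to the loci and to all autosomes. The comparison used every cytosine listed in both the knockdown and the control. For the Dnmt1 knockdown, 92 of 316 member cytosines were lower and 0 higher, beside 31.1% lower and 0.0115% higher on all autosomes. Of the 81 methylated members, 81 were lower and 0 higher, beside 99.3% and 0.00409%. For the Dnmt3a knockdown, 20 of 370 were lower and 0 higher, beside 7.99% and 0.293%, and of the 81 methylated members 7 were lower and 0 higher, beside 12.9% and 0.241%. Of all compared members, 29.1% were lower in the Dnmt1 knockdown and 5.41% in the Dnmt3a knockdown, against autosomal shares of 31.1% and 7.99%.

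The remaining knockdowns passed 20 points at few member cytosines. With Dnmt3a and Dnmt3b knocked down together, 10 of 337 were lower and 1 higher, beside 4.9% and 0.421%, and of the methylated members 1 was lower and 1 higher, beside 6.56% and 0.362%. For the Dnmt3b knockdown, 2 of 351 were lower and 0 higher, beside 1.22% and 1.74%, and of the methylated members 0 were lower and 0 higher, beside 0.949% and 1.23%. For the Tet1 and Tet2 knockdown, 3 of 344 were lower and 8 higher, beside 0.889% and 2.58%, and of the methylated members 0 were lower and 4 higher, beside 0.815% and 2.19%. In the control the strands of 1067 methylated autosomal CpGs read on both differed with an SD of 9.56 points, and in the Dnmt1 knockdown with an SD of 17.4. This is the spread of a difference between levels, so it is only a rough scale for the error of a single level.

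**Figure D2:**
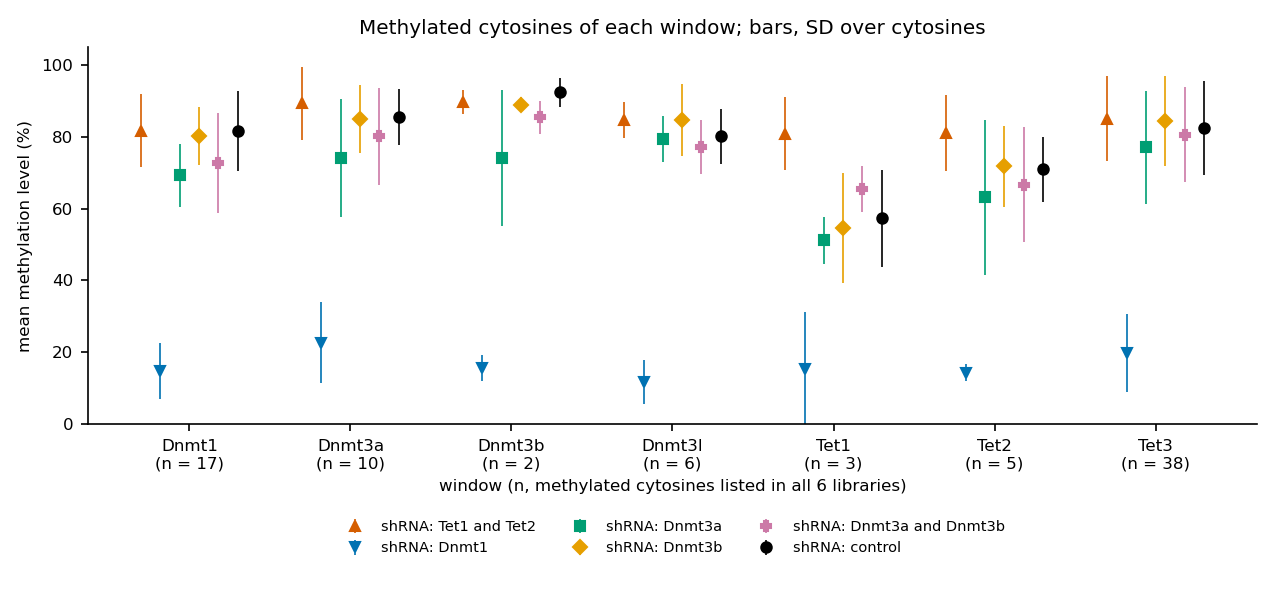
The plot gives the mean methylation level in percent (y axis) of the methylated cytosines of each window (x axis, with their number) in the 5 knockdowns and, rightmost in each group, the control. Symbols are the libraries and bars are the SD over cytosines. The Dnmt1 knockdown lies between 11.7% and 22.7%, the lowest library in all 7 windows. The Tet1 window is the one with the widest gap between the Tet1 and Tet2 knockdown and the control. The median that sets the methylated class includes all 6 libraries.

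At Dnmt1 itself, the gene of the maintenance enzyme, the methylated cytosines were lower by more than 20 points at each position when Dnmt1 was the target. Its 17 methylated cytosines averaged 81.7 ± 10.2% in the Tet1 and Tet2 knockdown, 14.9 ± 7.78% in the Dnmt1 knockdown, 69.3 ± 8.84% in the Dnmt3a knockdown, 80.3 ± 8% in the Dnmt3b knockdown, 72.6 ± 13.9% in the Dnmt3a and Dnmt3b knockdown and 81.6 ± 11.1% in the control (SD over cytosines). The Dnmt1 knockdown kept 18.2% of the control level, and each of the 17 cytosines was lower. In the Dnmt3a knockdown 15 of 17 were lower, and in the Dnmt3a and Dnmt3b knockdown 16 of 17. Most methylated autosomal cytosines were lower as well, 83059 of 97694 in the Dnmt3a knockdown and 75810 in the Dnmt3a and Dnmt3b knockdown.

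The named clusters of the Dnmt1 window show how far the loss went at single places. A cluster is a group of at least 3 cytosines listed in all libraries, at most 100 bp apart and averaging at least 20%. There were 15, of which up to 3 per window with the most cytosines, 11 in all, are named. The cluster at chr9:20728642-20728777, 28.4 kb downstream of the Dnmt1 start with 5 cytosines, averaged 85.6% in the Tet1 and Tet2 knockdown, 11.1% in the Dnmt1 knockdown, 70.4% in the Dnmt3a knockdown, 80% in the Dnmt3b knockdown, 76.3% in the Dnmt3a and Dnmt3b knockdown and 81.8% in the control. It fell below 20% at each of its 5 cytosines and so became a low run in the Dnmt1 library. The cluster at chr9:20716533-20716661, 40.5 kb downstream with 4 cytosines, averaged 19.4% in the Dnmt1 knockdown and 77.6% in the Dnmt3a knockdown, against 90.7% in the control. The cluster at chr9:20713015-20713125, 44.0 kb downstream, was the one where the Dnmt3a and Dnmt3b knockdown differed most from the control among the 11, with 51.9% against 68.4% in the control (n = 5 cytosines).

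At Dnmt3a, a de novo enzyme gene, the methylated cytosines were again lowest in the Dnmt1 knockdown and next lowest in the Dnmt3a knockdown. Its 10 methylated cytosines averaged 89.3 ± 10.2% in the Tet1 and Tet2 knockdown, 22.7 ± 11.3% in the Dnmt1 knockdown, 74.1 ± 16.5% in the Dnmt3a knockdown, 84.9 ± 9.44% in the Dnmt3b knockdown, 80.1 ± 13.5% in the Dnmt3a and Dnmt3b knockdown and 85.5 ± 7.85% in the control. All 10 were lower than the control in the Dnmt3a knockdown, with a mean difference of -11.5 points. On all autosomes 83059 of 97694 methylated cytosines were lower in that knockdown, with a mean difference of -9.02 points. In the Dnmt1 knockdown the 10 kept 26.5% of the control level.

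One place in Dnmt3a stood out among the clusters for what it kept. The 3 cytosines at chr12:3895917-3895943, 89.0 kb downstream of the start, averaged 92% in the Tet1 and Tet2 knockdown, 35.1% in the Dnmt1 knockdown, 86.6% in the Dnmt3a knockdown, 89.3% in the Dnmt3b knockdown, 88.8% in the Dnmt3a and Dnmt3b knockdown and 91.7% in the control. In the Dnmt1 knockdown these cytosines read 28.4%, 43.2% and 33.7%, against 87.5%, 94.5% and 93% in the control. A cytosine 104 bases away on the other strand read 9.1% in the Dnmt1 knockdown, against 82.8% in the control. The 35.1% was the highest mean of the 11 named clusters in that library.

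At Dnmt3b, the other de novo enzyme gene, 2 methylated cytosines were listed in all libraries and no cluster formed. The cytosine at chr2:153499958 read 87.4% in the Tet1 and Tet2 knockdown, 13.1% in the Dnmt1 knockdown, 60.8% in the Dnmt3a knockdown, 87.4% in the Dnmt3b knockdown, 82.2% in the Dnmt3a and Dnmt3b knockdown and 89.5% in the control. Its neighbour at chr2:153499966 read 92.1%, 18.2%, 87.5%, 90.4% and 88.7% in those knockdowns and 95.2% in the control. Bases 8 apart thus differed by 26.7 points in the Dnmt3a knockdown, more than in any other library, and the mean of the pair there carries that spread.

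At Dnmt3l, the cofactor gene, all 6 methylated cytosines lay in 1 cluster, chr10:77520036-77520179. It averaged 84.6 ± 5.07% in the Tet1 and Tet2 knockdown, 11.7 ± 6.11% in the Dnmt1 knockdown, 79.3 ± 6.39% in the Dnmt3a knockdown, 84.7 ± 10.1% in the Dnmt3b knockdown, 77.2 ± 7.63% in the Dnmt3a and Dnmt3b knockdown and 80.1 ± 7.69% in the control. This was the lowest window mean in the Dnmt1 knockdown, 14.5% of the control level. In the Dnmt3a knockdown it differed from the control by -0.833 points, less than in the other 6 windows.

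Among the Tet genes, Tet3 carried the most data and followed the pooled pattern. Its 38 methylated cytosines averaged 85.0 ± 11.8% in the Tet1 and Tet2 knockdown, 19.9 ± 10.8% in the Dnmt1 knockdown, 77.2 ± 15.7% in the Dnmt3a knockdown, 84.4 ± 12.6% in the Dnmt3b knockdown, 80.6 ± 13.1% in the Dnmt3a and Dnmt3b knockdown and 82.4 ± 13.1% in the control. Levels in the Dnmt1 knockdown ran widely within this window, between 0% and 53.8%. Tet3 was not a target of any shRNA in the series.

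The Tet3 clusters differed from each other in the level they started with. The cluster at chr6:83318001-83318128, 73.6 kb downstream of the Tet3 start, with 10 cytosines, averaged 65.6% in the Tet1 and Tet2 knockdown, 14.2% in the Dnmt1 knockdown, 50.8% in the Dnmt3a knockdown, 63.7% in the Dnmt3b knockdown, 59.9% in the Dnmt3a and Dnmt3b knockdown and 60.5% in the control. Of these 10 cytosines, 9 formed a low run in the Dnmt1 library, at 13.2% against 60.6% in the control. The cluster at chr6:83354523-83354684, 37.1 kb downstream with 9 cytosines, averaged 21.9% in the Dnmt1 knockdown and 86.4% in the Dnmt3a knockdown, against 88.2% in the control. The cluster at chr6:83325725-83325893, 65.9 kb downstream with 6 cytosines, averaged 20% in the Dnmt1 knockdown and 78.7% in the Dnmt3a knockdown, against 87.1% in the control.

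The Dnmt1 knockdown had 4 low runs with no run of the control under them, and these 2 at Dnmt1 and Tet3 were the ones over sequence that was methylated in the control. The other 2 were in the Tet3 window: 1 had 3 of its 5 cytosines listed in the control, at 0%, and 1 had none listed there. For these the control lists too few cytosines to give a run of its own.

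At Tet2, the Tet1 and Tet2 knockdown lay above the control at each of the 5 methylated cytosines listed in all libraries. Of the cytosines that the Dnmt1 library did not list, chr3:133149230 was lower, at 77.3% against 80% in the control. Those at chr3:133149250, chr3:133149261 and chr3:133131125 were higher, at 95.7%, 95.7% and 100% against 80%, 75% and 81.5%. The 5 listed in all libraries averaged 81.0 ± 10.6% in the Tet1 and Tet2 knockdown, 14.3 ± 2.31% in the Dnmt1 knockdown, 63.1 ± 21.6% in the Dnmt3a knockdown, 71.8 ± 11.3% in the Dnmt3b knockdown, 66.6 ± 16% in the Dnmt3a and Dnmt3b knockdown and 70.9 ± 8.95% in the control. The cluster at chr3:133131002-133131048, 76.3 kb downstream of the Tet2 start with 3 cytosines, averaged 88.4% in the Tet1 and Tet2 knockdown, 15.6% in the Dnmt1 knockdown and 75.3% in the Dnmt3a knockdown, against 75.7% in the control. The cluster at chr3:133149153-133149185, 58.2 kb downstream with 3 cytosines, averaged 66.7% in the Tet1 and Tet2 knockdown, 9.73% in the Dnmt1 knockdown, 36.8% in the Dnmt3a knockdown, 56.4% in the Dnmt3b knockdown, 45.7% in the Dnmt3a and Dnmt3b knockdown and 55.2% in the control. The difference between the Dnmt3a knockdown and the control was -18.4 points at this cluster and -0.367 points at the one before.

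Of the 7 windows, Tet1 had the lowest mean of methylated cytosines in the control. It also had the largest difference between the Tet1 and Tet2 knockdown and the control, over 3 cytosines. The median that sets the class includes the Tet1 and Tet2 library, and 1 of the 3 reached 50% only with it. That cytosine had a median of 51.45% and read 77.8% in the Tet1 and Tet2 knockdown and 42.3% in the control. Its 3 methylated cytosines averaged 80.9 ± 10.2% in the Tet1 and Tet2 knockdown, 15.3 ± 15.8% in the Dnmt1 knockdown, 51.1 ± 6.65% in the Dnmt3a knockdown, 54.5 ± 15.3% in the Dnmt3b knockdown, 65.5 ± 6.41% in the Dnmt3a and Dnmt3b knockdown and 57.4 ± 13.5% in the control. Since so many Tet1 cytosines fell between the classes, the 8 with a median of at least 20% were also averaged, a set added after the values were seen. They averaged 69.9% in the Tet1 and Tet2 knockdown, 9.85% in the Dnmt1 knockdown, 37.2% in the Dnmt3a knockdown, 50.9% in the Dnmt3b knockdown, 44.4% in the Dnmt3a and Dnmt3b knockdown and 49.6% in the control.

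Over all 19 Tet1 cytosines listed in both libraries, the mean was 52.1% in the Tet1 and Tet2 knockdown and 45.6% in the control, a mean difference of 6.47 points with a median of 8.3; 13 were higher and 6 lower. The 8 cytosines with a median of at least 20%, which also had to be listed in the Dnmt1 library, were all higher, by 4.3 to 35.5 points and by 20.3 on average. The same set on all autosomes was higher by 3.02 points, with 74738 of 116794 above the control. In the Tet2 window, where 6 of 6 were higher, it was higher by 12.1. The median that chose these sets includes the Tet1 and Tet2 library itself. Of the 8 Tet1 cytosines, 1 had a median of 21% and would fall below 20% without that library. It read 45.8% in that knockdown and 24.1% in the control. The sets differ in make-up: 5 of the 8 Tet1 cytosines fell between the classes, against 19100 of the 116794 autosomal ones. Those 5 were higher by 18.3 points, and the autosomal cytosines between the classes by 7.08. The 3 methylated Tet1 cytosines were higher by 23.5 points, and the methylated autosomal ones by 2.23. Over all windows, 8 of 344 compared member cytosines (2.33%) were higher by at least 20 points in this knockdown, beside 2.58% on all autosomes. These were 4 of 19 in the Tet1 window, 2 of 41 in Tet2, 1 of 92 in Tet3 and 1 of 38 in Dnmt3l. The difference did not extend to every Tet1 cytosine: 1 of the 6 lower ones, 83.2 kb downstream of the start and listed in no other library, read 36.4% in the knockdown and 70% in the control. The 4 low Tet1 cytosines about 21 kb downstream averaged 11.3% in the Tet1 and Tet2 knockdown, 0% in the Dnmt1 knockdown, 4.4% in the Dnmt3a knockdown, 2.45% in the Dnmt3b knockdown, 2.8% in the Dnmt3a and Dnmt3b knockdown and 11.4% in the control.

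Within the Tet1 window these 8 cytosines fell into 3 groups by position. The pair about 17.1 kb downstream read 59.9% and 45.8% in the Tet1 and Tet2 knockdown, 0% and 0% in the Dnmt1 knockdown, and 44.2% and 24.1% in the control. The pair about 47.7 kb downstream read 77.8% and 92.3% in the Tet1 and Tet2 knockdown, 0% and 14.3% in the Dnmt1 knockdown, and 42.3% and 61.5% in the control. Beside that pair, 3 cytosines about 47.6 kb downstream, which the Dnmt1 library did not list, read 57.7%, 78.3% and 61.5% in the Tet1 and Tet2 knockdown and 43.2%, 73.3% and 81.1% in the control, so that 2 were higher and 1 was lower. The cluster at chr10:62287382-62287511, 62.6 kb downstream with 4 cytosines, averaged 70.8% in the Tet1 and Tet2 knockdown, 16.1% in the Dnmt1 knockdown, 36.5% in the Dnmt3a knockdown, 58.0% in the Dnmt3b knockdown, 41.3% in the Dnmt3a and Dnmt3b knockdown and 56.2% in the control. At each of the 8 the level in the Tet1 and Tet2 knockdown was above that in the control, by 4.3 points at the closest.

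**Figure D3:**
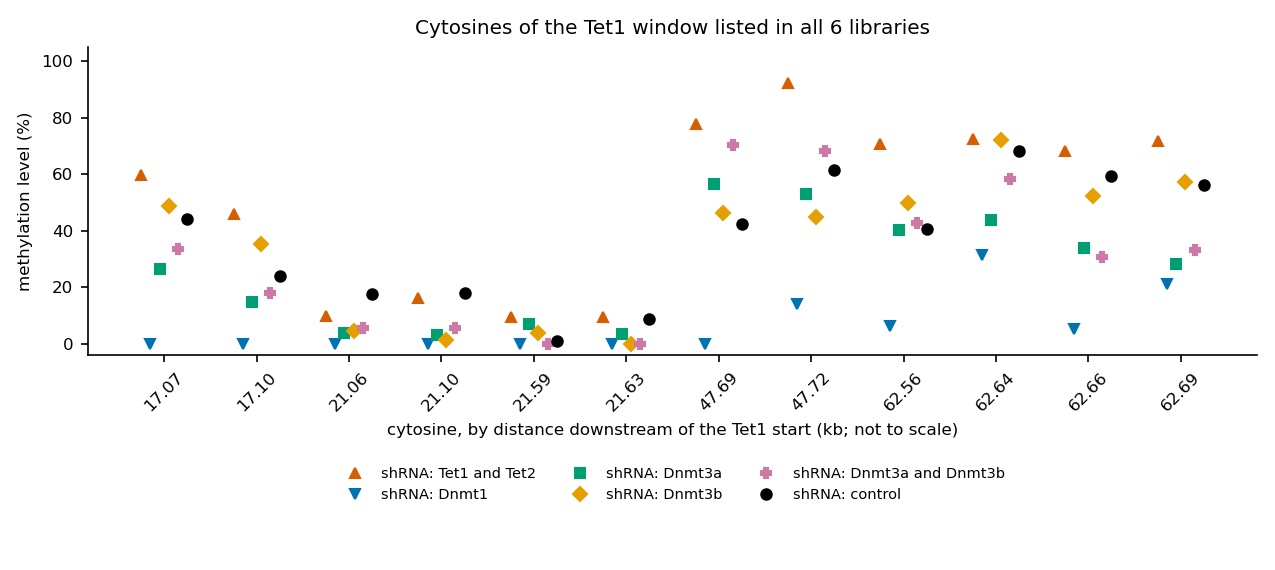
The plot gives the methylation level in percent (y axis) of the 12 Tet1 cytosines listed in all libraries, in order of their distance in kb downstream of the Tet1 start (x axis, not to scale). Each symbol is 1 library, with the control rightmost at each cytosine. The Tet1 and Tet2 knockdown lies above the control at the 8 cytosines with a median of at least 20%. The Dnmt1 knockdown lies below the control at all 12. The median includes the Tet1 and Tet2 library.

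Across the 11 named clusters, the side of the control on which a knockdown lay was steady for Dnmt1 and Dnmt3a. The rank of the Dnmt3a knockdown was not. It averaged 56.7% at chr9:20713015-20713125 and 79.3% at the Dnmt3l cluster, above the 51.9% and 77.2% of the Dnmt3a and Dnmt3b knockdown. The Dnmt1 knockdown was below the control in all 11, with differences between -71.3 and -40.1 points and a median of -60.1. The Dnmt3a knockdown was below it in all 11, with differences between -19.7 and -0.367 points and a median of -9.73. The Dnmt3a and Dnmt3b knockdown was below it in 10 and above it in 1, with a median difference of -3.58 points. The Dnmt3b knockdown was above the control in 8 and below in 3 with a median of 2.94 points, and the Tet1 and Tet2 knockdown likewise in 8 and 3 with a median of 3.8 points.

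Read one by one, the windows gave nearly the same order as the pooled methylated cytosines. The Dnmt1 knockdown had the lowest mean of methylated cytosines in 7 of 7 windows. The Dnmt3a knockdown had the second lowest in 6, and the Dnmt3a and Dnmt3b knockdown in 1, Dnmt3l. The Tet1 and Tet2 knockdown had the highest mean in 5 windows and was above the control in 6, all but Dnmt3b. In the Dnmt1 window it was above by only 0.0353 points, with 8 cytosines below the control and 9 above.

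**Figure D4:**
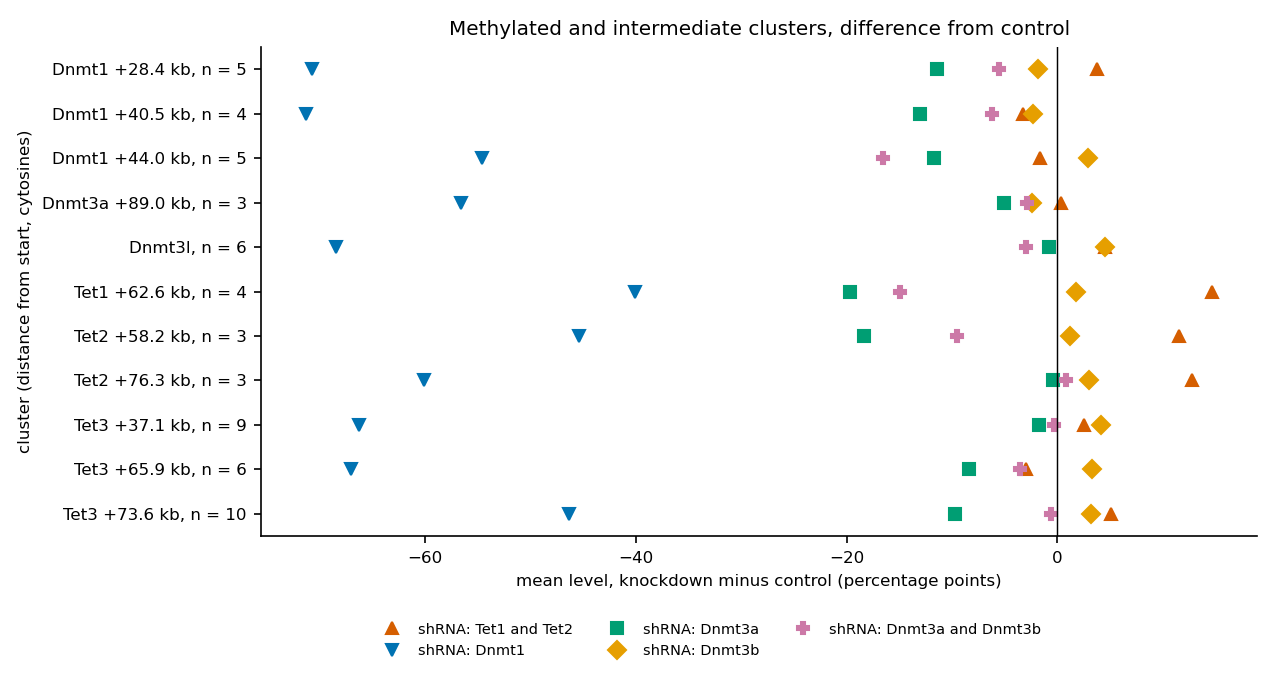
Each row is 1 of the 11 named clusters, labelled with its gene, the distance in kb from the placed start where there is one, and its number of cytosines. The x axis is the mean level of a knockdown minus that of the control in percentage points: the Dnmt1 knockdown lies between -71.3 and -40.1, the Dnmt3a knockdown between -19.7 and -0.367, and the Tet1 and Tet2 knockdown is farthest to the right at the Tet1 cluster, at 14.7.

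Methylated cytosines were missing from the Dnmt1 library more often than low ones. Of the member cytosines listed in all 5 other libraries, the Dnmt1 library lacked 18 of 102 methylated ones (17.6%) and 18 of 200 low ones (9%). The autosomal shares were 32.2% and 10.9%. The levels given for the Dnmt1 knockdown are those of the cytosines it listed, and the part of the unlisted ones in the result was not tested.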

How the data were processed

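Each library was E14 embryonic stem cell DNA cut with MspI, bisulfite converted and sequenced, per the labels' protocols. CASAVA 1.8, Bismark 0.10.1 and the build mm9 appear, per the submitters' processing notes, without their roles. How duplicate reads were treated is not stated, and no coverage minimum is stated. The authors deposited, for each cytosine, its position, strand, 5-base context and methylation level as a fraction with 3 decimals and no read counts. Between 67 and 135 lines per library had no level and were left out. The fraction was multiplied into percent.

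Libraries were joined by position and strand. A cytosine was low below 20%, methylated from 50% and between otherwise, by the median of the 6 libraries. Each knockdown was set against the control by differences, with no test, since each group is 1 library. Named items were all 7 genes, every low run of the median, and up to 3 clusters per window, chosen by number of cytosines and not by difference. Promoters were placed where at least 5 listed cytosines matched in context and spacing, no listed cytosine in the span was unmatched, and exactly 1 place on the promoter's own chromosome fitted; 7581 of 32851 were placed. Exons and introns were not assigned, because no mm9 annotation was used here. The members and gene lists were chosen with earlier results of these data known. The run, call and placement steps were tested on simulated data. Alternatives were other thresholds, sets of cytosines, run lengths and gaps, merged strands and window weights. Python 3.11.15, pandas 2.3.3, NumPy 2.4.6 and matplotlib 3.10.9 were used.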

Additional observations from a re-analysis of the deposited data

How the results depend on the processing

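Of 40 alternative mean differences, 39 moved by less than 5 points. The exception was the Dnmt1 knockdown at cytosines with a median above 80%, at -68.5 points. The limit of 5 points is wider than the main difference for Tet1 and Tet2 (3.46), Dnmt3b (0.779) and Dnmt3a and Dnmt3b (-3.75). For these knockdowns it cannot tell whether a difference held. Over all settings the difference ran from 1.43 to 6.0 for Tet1 and Tet2, -68.5 to -60.7 for Dnmt1, -9.86 to -6.38 for Dnmt3a, -0.309 to 1.16 for Dnmt3b, and -5.49 to -2.65 for Dnmt3a and Dnmt3b. The sign for Dnmt3b changed with windows weighted alike (-0.127) and without the Tet3 window (-0.309), settings added after the data were seen.

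Of 36 counts of low runs, 32 stayed within 1.5 times. With at least 3 cytosines the Dnmt1 knockdown had 25 runs and the Dnmt3a and Dnmt3b knockdown 17. With at least 10, the Tet1 and Tet2 knockdown had 8 and the Dnmt1 knockdown 8.

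Of 30 counts of cytosines past the difference, 14 stayed within 1.5 times. At 10 points, lower counts were 15 for Tet1 and Tet2, 58 for Dnmt3a, 15 for Dnmt3b and 35 for Dnmt3a and Dnmt3b, and higher counts were 28, 4, 13 and 4. At 30 points, lower counts were 5 for Dnmt3a and 1 for Dnmt3b, and higher counts were 2 for Tet1 and Tet2 and 0 for Dnmt3a and Dnmt3b. At cytosines listed in all 6 libraries, lower counts were 0 for Tet1 and Tet2, 10 for Dnmt3a, 0 for Dnmt3b and 4 for Dnmt3a and Dnmt3b. The stricter settings keep fewer cytosines by construction. Counts at 10 and 30 points are out of 344 for Tet1 and Tet2, 370 for Dnmt3a, 351 for Dnmt3b and 337 for Dnmt3a and Dnmt3b. Those at cytosines listed in all 6 libraries are out of 272. Autosomal shares were not taken for these settings, so the counts have no background beside them. No paired analysis was possible because each group has 1 library, and for the same reason none was left out. Read depth per cytosine is unknown, so no interval can be set on a single level.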
